A study of Homo sapiens with 24 samples.

Results

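The clade B serpins are a family of serpins (serine protease inhibitors) that lack a classical secretion signal, so most members act inside the cell. A serpin traps its protease as a covalent complex when the enzyme cleaves the serpin's reactive loop. In human DNA most of the family lies in a cluster on chromosome 18, and the remainder lies in a smaller group on chromosome 6. In epithelia the family is best known from keratinocytes and from squamous carcinomas, where SERPINB3 and SERPINB4 were described as squamous cell carcinoma antigens, and from breast, where SERPINB5 (maspin) was described as a candidate tumor suppressor. Of 10 family members named for this account, 8 could be measured: SERPINB1, SERPINB3, SERPINB4, SERPINB5, SERPINB7, SERPINB8, SERPINB9 and SERPINB13. Each of the 8 is read by 1 probe set, the only one that the platform annotation pairs with that symbol alone, among 18374 genes with such a probe set in all. SERPINB2 (PAI-2) and SERPINB6, an inhibitor of cathepsin G, are paired with no probe set in the annotation used and were not analysed here.

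The arrays came from T-47D cells, an established luminal breast cancer line that carries the estrogen receptor. The cells had been transfected with P-Rex1 RNAi #1 or P-Rex1 RNAi #2, separate siRNA duplexes against PREX1, with a non-target duplex (NTC), or with none (parental). PREX1 encodes P-Rex1, an exchange factor that activates the GTPase Rac. Each of these 4 kinds of cells was serum starved and then received heregulin β1 (HRG), which binds the receptors ErbB3 and ErbB4, at 20 ng/ml for 6 h, or PBS as vehicle, which gives 8 groups of 3 biological replicates (24 arrays). Silencing was transient, so the silenced cells are pools and not clones, and parental cells received no duplex, while whether they received the transfection reagent is not given. Expression is given as log2 values after Robust Multichip Average normalization (RMA), so 1 unit is a doubling of the signal. Differences between groups were tested with limma, a linear model fitted to all 24 arrays and to the 21042 probe sets that carry at least 1 gene symbol, of 28536 on the array. A member was called where the fold change exceeded 1.5 and the Benjamini-Hochberg adjusted p was under 0.05. For interactions, which ask whether the effect of HRG differs between cells, the adjusted p alone was used.

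Array medians lay between 6.04 and 6.18. PREX1, the silenced gene, was 8.91 to 9.09 with RNAi #1 and 8.97 to 9.03 with RNAi #2 on the vehicle arrays, against 10.36 to 10.52 in NTC and 10.59 to 10.63 in parental cells, so its level matched the labels on all silenced arrays. With HRG the difference was smaller, at -0.97 for RNAi #1 and -0.77 for RNAi #2 on the log2 scale, and PREX1 itself fell with HRG by 1.05 in parental cells. All 8 luminal markers checked (such as KRT8, GATA3 and ESR1) lay above the 75% quantile of every array. None of the 7 leukocyte, 6 fibroblast and 4 endothelial markers measured did so on all arrays. Of these, 5 leukocyte, 4 fibroblast and 4 endothelial markers were below the median of all 24 arrays. The others were less dim: ELANE and COL1A1 were below the median on 0 arrays, CD68 on 3 and LUM on 5. PTPRC and LYZ were the 2 leukocyte markers below the 25% quantile of all 24. A group of 4 arrays stood apart, past 10 units on the negative side of the second principal component (parental vehicle 3, NTC HRG 3, RNAi #1 vehicle 2 and RNAi #2 HRG 3). Results that change without them are given with and without. Only this side was cut. RNAi #2 HRG 1 lay at 11.70 on the positive side, against -11.25 for RNAi #2 HRG 3, and was not set apart. In bulk RNA, fewer cells that express a gene and less RNA per cell cannot be told apart.

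SERPINB8 and SERPINB5 are the members whose levels moved with HRG in both kinds of control cells, so the 250 bases before their start sites are shown here. The sequences are those of RefSeq on GRCh38.p14, both on the plus strand, and capitals mark the AP-1-type motif TGANTCA and the ETS-type motif CCGGAAG. The end of each line is the base before the start site.
SERPINB8, chr18:63969831-63970080: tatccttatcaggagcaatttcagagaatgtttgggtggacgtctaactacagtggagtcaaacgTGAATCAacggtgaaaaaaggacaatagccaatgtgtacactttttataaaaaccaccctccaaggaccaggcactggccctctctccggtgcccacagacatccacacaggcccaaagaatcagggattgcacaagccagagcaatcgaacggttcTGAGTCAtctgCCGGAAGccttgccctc
SERPINB5, chr18:63476708-63476957: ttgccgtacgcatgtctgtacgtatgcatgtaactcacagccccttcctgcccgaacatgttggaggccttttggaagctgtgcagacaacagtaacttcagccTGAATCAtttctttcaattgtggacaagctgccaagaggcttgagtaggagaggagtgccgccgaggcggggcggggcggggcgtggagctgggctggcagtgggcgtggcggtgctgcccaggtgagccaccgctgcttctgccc

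The SERPINB8 window holds the AP-1-type motif at 185 to 179 bases and again at 28 to 22 bases before the start, and the ETS-type motif follows at 17 to 11 bases. The SERPINB5 window holds a single AP-1-type motif, at 146 to 140 bases. Both strands were searched, and the matches shown do not overlap. Sequences were found for all 10 members, and 5 of them had TGANTCA in at least 1 window (SERPINB2, SERPINB5, SERPINB7, SERPINB8 and SERPINB13), against 6.57% of 35116 windows of the same length in the RefSeq table. CCGGAAG was found for 3 members (SERPINB1, SERPINB6 and SERPINB8), against 8.52% of all windows. The CRE motif TGACGTCA and the CArG box, found in 1.65% and 1.16% of all windows, occurred in no member's window. Some members have several annotated starts, which gives them more windows than others (4 for SERPINB6 and 3 for SERPINB7). A count of members and a share of single windows are therefore unlike measures. In these windows SERPINB3 and SERPINB4 differed at 3 of 250 bases (98.8% identical). Their transcript and probe sequences were not compared, so signal shared between these neighbors was not tested and their values are uncertain. A match is a string of letters, and binding was not measured on these arrays.

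SERPINB8, an intracellular inhibitor known to inhibit the proprotein convertase furin, rose with HRG in all 4 kinds of cells. In parental cells its log2 level was 8.27, 8.27 and 8.49 with HRG, against 6.37, 6.49 and 6.30 with vehicle. In NTC cells it was 8.43, 8.42 and 8.49 with HRG, against 6.51, 6.26 and 6.22 with vehicle. The lowest HRG array thus lay 1.78 log2 units above the highest vehicle array in parental cells and 1.91 units above it in NTC cells. The rise amounted to 1.96 on the log2 scale in parental cells (SE 0.09, 3.88-fold, limma adjusted p = 1.82e-12) and to 2.12 in NTC cells (SE 0.09, 4.34-fold, adjusted p = 4.38e-13). These rises did not differ detectably between NTC and parental cells (difference 0.16, 95% interval -0.12 to 0.44, adjusted p = 0.668). By its mean rise over both, SERPINB8 stood in place 16 of the 448 probe sets raised in both controls.

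With P-Rex1 RNAi #1, SERPINB8 reached 7.88, 8.31 and 8.17 with HRG, against 6.29, 6.22 and 6.17 with vehicle. With P-Rex1 RNAi #2 it reached 7.40, 7.34 and 7.39 with HRG, against 6.29, 6.07 and 6.29 with vehicle. Both duplexes therefore left a rise without overlap between HRG and vehicle arrays, but all 3 HRG arrays of RNAi #2 lay below all HRG arrays of the other cells, the nearest being 0.48 log2 units higher. The rise was 1.89 with RNAi #1 (SE 0.09, 3.72-fold, adjusted p = 3.98e-12) and 1.16 with RNAi #2 (SE 0.09, 2.23-fold, adjusted p = 2.61e-08).

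**Figure D1:**
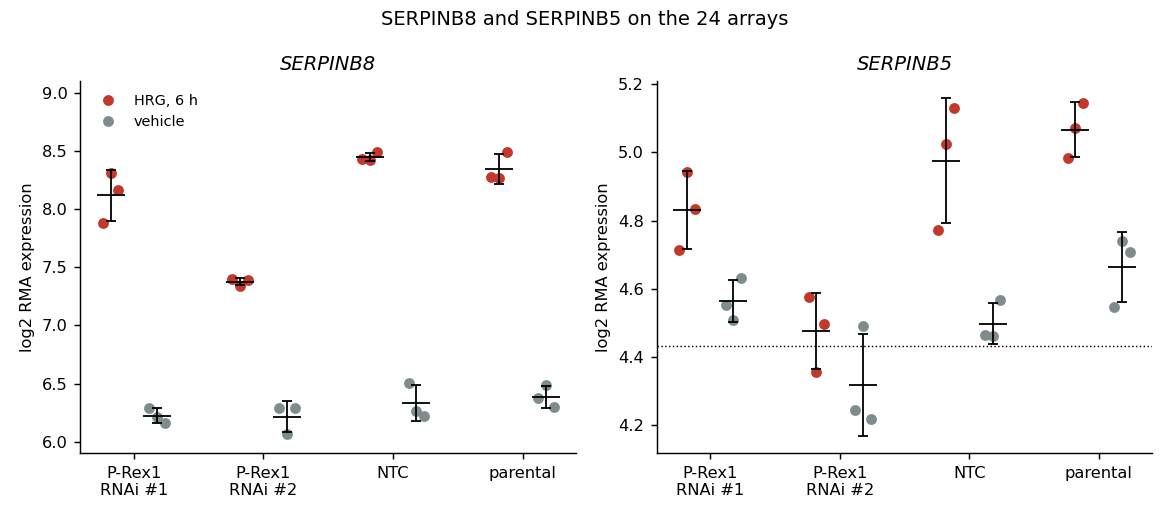
Log2 RMA expression of SERPINB8 (left) and SERPINB5 (right) on each of the 24 arrays, by cells, with HRG in red and vehicle in grey. Points are arrays, and the bars give the mean and SD of the 3 replicates. The dotted line marks 4.43, the highest 25% quantile of any array. SERPINB8 with HRG averaged 7.37 with RNAi #2, against 8.34 in parental cells, while all vehicle groups lay between 6.22 and 6.39.

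Each duplex was tested against the mean of parental and NTC cells, the control that both duplexes share. The duplexes were also tested directly against each other, a difference that holds no control cells. The HRG effect on SERPINB8 was smaller by 0.88 on the log2 scale with RNAi #2 than in the control cells (interaction -0.88, SE 0.12, limma adjusted p = 5.84e-05). With RNAi #1 the interaction was -0.14 (95% interval -0.38 to 0.10, adjusted p = 0.501), which leaves room for a loss of up to 0.38. RNAi #2 set against RNAi #1 gave -0.74 (SE 0.13, limma adjusted p = 0.0285), and SERPINB8 was 1 of only 14 probe sets past the threshold in that comparison. In all 14 the difference was below 0, which can be a smaller rise or a larger fall with RNAi #2. The SERPINB8 call between duplexes did not survive the loss of single arrays from the silenced cells, nor of the 4 arrays that stood apart (-0.74, limma adjusted p = 0.138). The call was lost without RNAi #1 vehicle 2 or 3, RNAi #1 HRG 2 or 3, RNAi #2 vehicle 1 or 3, or any of the 3 RNAi #2 HRG arrays, with adjusted p-values up to 0.122 and values between -0.86 and -0.64 over all 24 omissions. For PREX1 itself, the HRG effect with RNAi #2 against RNAi #1 differed by 0.19 (95% interval -0.03 to 0.41, adjusted p = 0.71).

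Without HRG, neither duplex moved SERPINB8 past the threshold, with -0.13 for RNAi #1 (adjusted p = 0.533) and -0.14 for RNAi #2 (adjusted p = 0.489). In the presence of HRG, RNAi #2 lowered it by 1.02 on the log2 scale relative to the control cells (SE 0.08, adjusted p = 1.25e-08). RNAi #1 gave -0.28 under HRG (SE 0.08), with an adjusted p of 0.0503 that lies at the threshold. That value passed without NTC vehicle 1 (adjusted p = 0.0404), parental HRG 1 (0.0499), RNAi #1 HRG 2 (0.0317) or RNAi #2 vehicle 2 (0.0443). Ordered by mean, SERPINB8 was highest in NTC cells with HRG (8.45), followed by parental (8.34), RNAi #1 (8.12) and RNAi #2 (7.37) with HRG, and by the 4 vehicle groups (6.22 to 6.39). Neighbors in this order that were tested and did not differ beyond their spread are NTC and parental cells, both with HRG (difference 0.10, adjusted p = 0.696) and with vehicle (-0.06, adjusted p = 0.963).

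The share of the control response that remained was computed for SERPINB8 and for the 448 probe sets raised by HRG in both controls. SERPINB8 kept 92.9% of its mean control effect of 2.04 with RNAi #1, where the median probe set kept 83.6% (quartiles 71.0% and 95.9%). With RNAi #2 it kept 56.8%, where the median was 54.2% (quartiles 38.7% and 71.2%). Of the 448 probe sets, 312 kept less than SERPINB8 with RNAi #1 and 243 kept less with RNAi #2. With RNAi #2 SERPINB8 thus lay close to the middle of the HRG-raised probe sets. The control arrays both chose these probe sets and form the denominator, so the shares are descriptive.

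**Figure D2:**
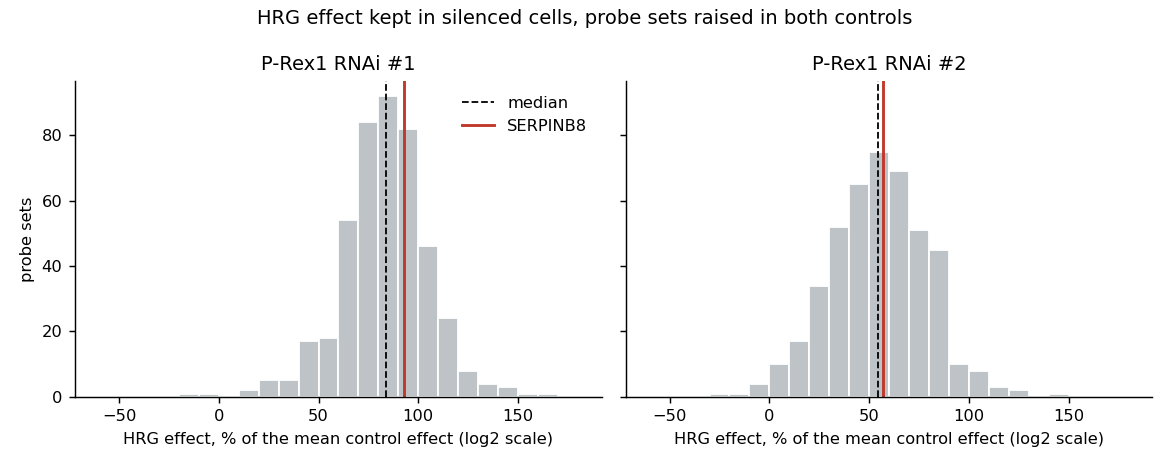
Share of the mean control HRG effect (log2 scale, in percent) that remained with RNAi #1 (left) and RNAi #2 (right), as the number of probe sets among the 448 raised by HRG in both controls. The dashed line is their median, at 83.6% and 54.2%, and the red line is SERPINB8, at 92.9% and 56.8%.

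The probe sets whose 8 group means most resembled those of SERPINB8, among 461 with a range of at least 1 log2 unit, were those of UPP1 (uridine phosphorylase; Pearson r = 0.9990), KLF4 (a Krüppel-like transcription factor; r = 0.9985) and IGF2BP2 (an mRNA-binding protein; r = 0.9974). The points share their arrays, so r is given as a description over 8 group means. The HRG effect on KLF4, for example, was 1.40 with RNAi #1 and 0.77 with RNAi #2, against 1.38 in NTC and 1.39 in parental cells. For UPP1 it was 1.09 and 0.70 with RNAi #1 and #2, against 1.18 in NTC and 1.15 in parental cells.

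SERPINB5 encodes maspin, a family member that is not known to inhibit proteases by the serpin mechanism. It rose modestly with HRG in the control cells. In parental cells its log2 level was 4.98, 5.07 and 5.14 with HRG, against 4.55, 4.74 and 4.71 with vehicle. In NTC cells it was 4.77, 5.03 and 5.13 with HRG, against 4.46, 4.46 and 4.57 with vehicle. HRG and vehicle arrays did not overlap in either kind of cells. The difference was 0.40 in parental (SE 0.09, 1.32-fold, adjusted p = 1.28e-03) and 0.48 in NTC cells (SE 0.09, 1.39-fold, adjusted p = 2.14e-04), past the adjusted p but under the 1.5-fold limit.

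With RNAi #1 the levels of SERPINB5 were 4.72, 4.94 and 4.84 with HRG, against 4.55, 4.51 and 4.63 with vehicle. With RNAi #2 they were 4.58, 4.36 and 4.50 with HRG, against 4.24, 4.49 and 4.22 with vehicle, and here the groups overlapped. The HRG effect was 0.27 with RNAi #1 (adjusted p = 0.0296) and 0.16 with RNAi #2 (95% interval -0.03 to 0.34, adjusted p = 0.29). The RNAi #1 call was lost without the 4 arrays that stood apart (0.24, adjusted p = 0.0895), and without RNAi #1 vehicle 1 or 2 or RNAi #1 HRG 2 or 3 (adjusted p up to 0.137). Set against the control cells under HRG, SERPINB5 was lower by 0.54 with RNAi #2 (log2 difference -0.54, SE 0.08, adjusted p = 3.22e-05), while RNAi #1 gave -0.19 (adjusted p = 0.174). Neither interaction passed, at -0.17 with RNAi #1 (adjusted p = 0.396) and -0.28 with RNAi #2 (adjusted p = 0.183), so a weaker HRG effect in silenced cells was not shown for SERPINB5. Already without HRG its difference with RNAi #2 was -0.26 (adjusted p = 0.067), which passed without parental vehicle 1 (0.0494), NTC HRG 1 (0.0398) or RNAi #2 vehicle 2 (0.0432). SERPINB5 is a dim probe set, under the median of every array and below the 25% quantile of 2 arrays, where RMA compresses fold changes.

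**Figure D3:**
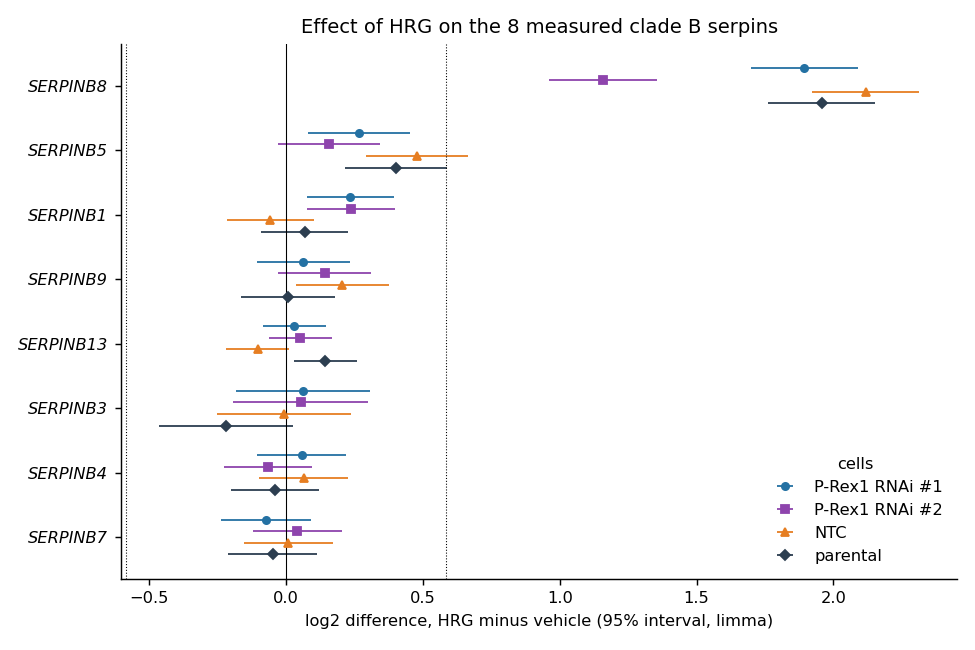
Effect of HRG on each of the 8 measured members as the log2 difference of HRG minus vehicle, with its 95% limma interval, by cells. Dotted lines mark a 1.5-fold change and the solid line marks no change. Only the intervals of SERPINB8 lie wholly beyond 1.5-fold, at 1.16 with RNAi #2 and between 1.89 and 2.12 in the other cells.

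SERPINB1 and SERPINB9 share the chromosome 6 group. SERPINB1 inhibits neutrophil elastase, proteinase 3 and cathepsin G, and was above the median of all 24 arrays. Its levels with HRG were 7.20, 7.39 and 7.16 with RNAi #1, against 7.07, 6.85 and 7.12 with vehicle, and 7.22, 7.26 and 7.18 with RNAi #2, against 7.04, 6.92 and 6.99 with vehicle. Both sets were higher with HRG without overlap, by 0.23 with RNAi #1 (adjusted p = 0.0262) and 0.24 with RNAi #2 (adjusted p = 0.0378), at 1.18-fold each, under the 1.5-fold limit. In NTC cells it was 6.99, 7.19 and 7.21 with HRG, against 7.12, 7.27 and 7.16 with vehicle. In parental cells it was 7.11, 7.21 and 7.27 with HRG, against 7.19, 7.11 and 7.08 with vehicle. These overlapped, with -0.06 in NTC and 0.07 in parental cells (adjusted p = 0.623 and 0.583). The difference between silenced and control cells was not past the threshold, at 0.23 for both duplexes (adjusted p = 0.195 with RNAi #1 and 0.204 with RNAi #2). Without the 4 arrays that stood apart the RNAi #1 effect was 0.15 (adjusted p = 0.18), as it was without RNAi #1 vehicle 2 (0.192). It was also lost without RNAi #1 HRG 2 (0.158). The RNAi #2 effect was lost without RNAi #2 vehicle 2 or 3 or any RNAi #2 HRG array (adjusted p up to 0.143).

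SERPINB9, the inhibitor of granzyme B, the cytotoxic lymphocyte protease, was dim, at 4.20 to 4.72 over the 24 arrays. It was 4.45, 4.66 and 4.72 with HRG in NTC cells, against 4.29, 4.40 and 4.53 with vehicle, a difference of 0.21 (adjusted p = 0.0629). In parental cells the difference was 0.01, with RNAi #1 it was 0.06 and with RNAi #2 it was 0.14, and HRG and vehicle arrays overlapped in all 4 kinds of cells. No comparison of SERPINB9 passed the threshold in the model described above. The NTC difference passed with the replicate number as a block (adjusted p = 0.0328), and without NTC HRG 1 (0.29, adjusted p = 0.0136), NTC vehicle 3 (0.0289), RNAi #1 HRG 2 (0.0487) or RNAi #2 vehicle 1 (0.0495).

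SERPINB13 (headpin) inhibits cathepsins L and K and was described in keratinocytes. It lay between 4.20 and 4.49, below the 25% quantile of 15 arrays. With HRG it was 4.20, 4.23 and 4.22 in NTC cells and 4.48, 4.49 and 4.41 in parental cells. These control groups did not overlap, but the difference between NTC and parental cells with HRG was -0.24 with an adjusted p of 0.214. The HRG effect was 0.14 in parental cells (adjusted p = 0.0536) and -0.10 in NTC cells (adjusted p = 0.173), opposite signs of which neither passed the threshold. The parental effect passed without the 4 arrays that stood apart (0.20, adjusted p = 0.0161), and without parental vehicle 3 (0.013), NTC vehicle 1 (0.0483) or RNAi #1 HRG 2 (0.0479).

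SERPINB3 and SERPINB4, inhibitors of cathepsins L, S and K and of cathepsin G and chymase, and SERPINB7 (megsin), known from the skin barrier, lay below the 25% quantile of all 24 arrays. Their values ran from 3.44 to 4.08 for SERPINB3, from 3.13 to 3.52 for SERPINB4 and from 3.37 to 3.76 for SERPINB7. Group means spanned 0.25, 0.12 and 0.12 log2 units in these genes, against 0.75 for SERPINB5 and 2.23 for SERPINB8. SERPINB3 was 3.47, 3.46 and 3.68 with HRG in parental cells, against 3.70, 3.88 and 3.69 with vehicle (log2 difference -0.22, adjusted p = 0.186). No comparison of these genes passed the threshold in the model described above. For SERPINB3 the parental HRG effect passed with array weights (-0.30, adjusted p = 0.04), and the difference of RNAi #2 from the control cells under HRG passed without RNAi #2 HRG 2 (0.35, adjusted p = 0.0365). Values this low are near the background of the array, so the data do not say whether the genes are expressed.

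**Figure D4:**
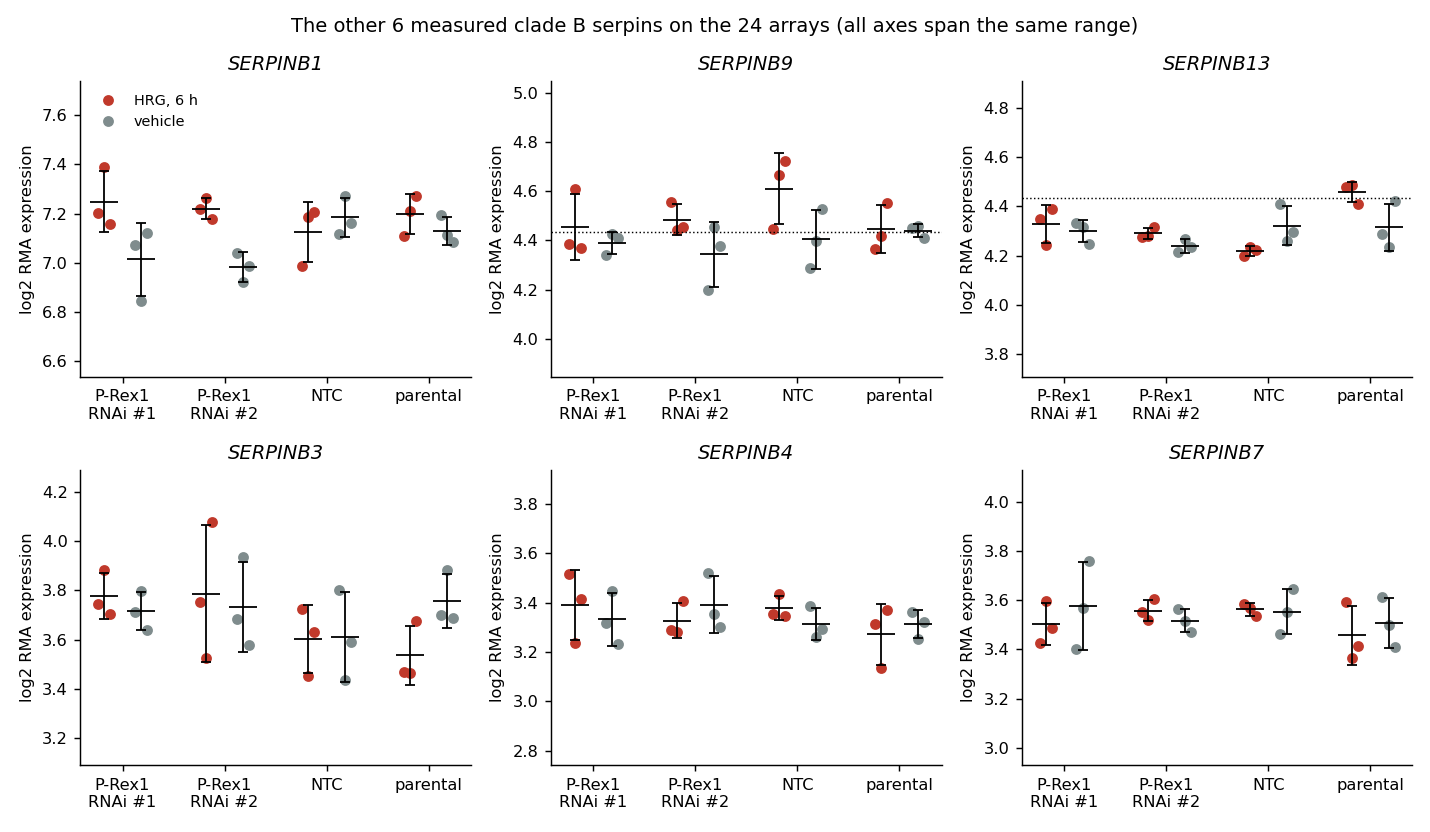
Log2 RMA expression of the other 6 measured members on the 24 arrays, by cells, with HRG in red and vehicle in grey. All axes span the same range, points are arrays, bars give the mean and SD (n = 3), and the dotted line marks 4.43, the highest 25% quantile of any array. HRG and vehicle arrays overlap in most cells, and SERPINB3, SERPINB4 and SERPINB7 lie wholly below 4.43.

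Counted over the 8 measured members, SERPINB8 was the 1 member called for HRG in parental cells, where 5.27% of all tested probe sets were called. The count was also 1 in NTC cells (6.01% of all), with RNAi #1 (3.67%) and with RNAi #2 (1.73%). By the adjusted p alone the counts were 2 in parental cells (30.8% of all), 2 in NTC cells (31.2%), 3 with RNAi #1 (27.3%) and 2 with RNAi #2 (15.8%), all higher. By the adjusted p, the members' share thus lay somewhat below that of all probe sets in both controls and above it with both duplexes, and with 8 genes 1 call more or fewer turns this order. The median HRG effect of the members was 0.04 in parental cells, against -0.03 over all probe sets, and 0.04 in NTC cells, against 0.03. In the interaction with RNAi #2, 1 member was called lower (SERPINB8), where 3.94% of all probe sets passed. In the interaction with RNAi #1, 0 members were called (1.16% of all), with 1 at an unadjusted p under 0.05. RNAi #2 against RNAi #1 called 1 (0.0665% of all). Silencing without HRG called 0 members with either duplex (0.0285% of all with RNAi #1, 0.181% with RNAi #2). Under HRG, RNAi #2 lowered 1 member by the full rule (1.01% of all) and 2 by the adjusted p alone (15% of all), and RNAi #1 called 0 (0.185%).

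The neighbors of SERPINB8 on chromosome 18 were read in the same way. In RefSeq order the 17 protein-coding genes from BCL2 to DSEL hold 10 clade B serpins, and 15 of the 17 were measured. SERPINB8 was the 1 gene called in both control cells. Of all 21042 tested probe sets, 448 were raised in both. Taken singly, 5.27% were called in parental and 6.01% in NTC cells, in either direction. The other 14 had HRG effects between -0.38 and 0.46 in parental cells and between -0.62 and 0.48 in NTC cells. The cadherin gene CDH7, next to SERPINB8, was lower with HRG in NTC cells alone (-0.62, against -0.15 in parental cells). SERPINB10, SERPINB11 and SERPINB12, the family members in the cluster beyond those named, had effects within 0.10 of 0 in both control cells, and 0 of these 3 was called in any comparison. Around SERPINB1 and SERPINB9 on chromosome 6, 0 of 6 measured genes was called in both control cells, where the same shares of all probe sets apply. MYLK4 in this group was called lower with HRG in parental cells (-0.69) but not in NTC cells (-0.36).

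**Figure D5:**
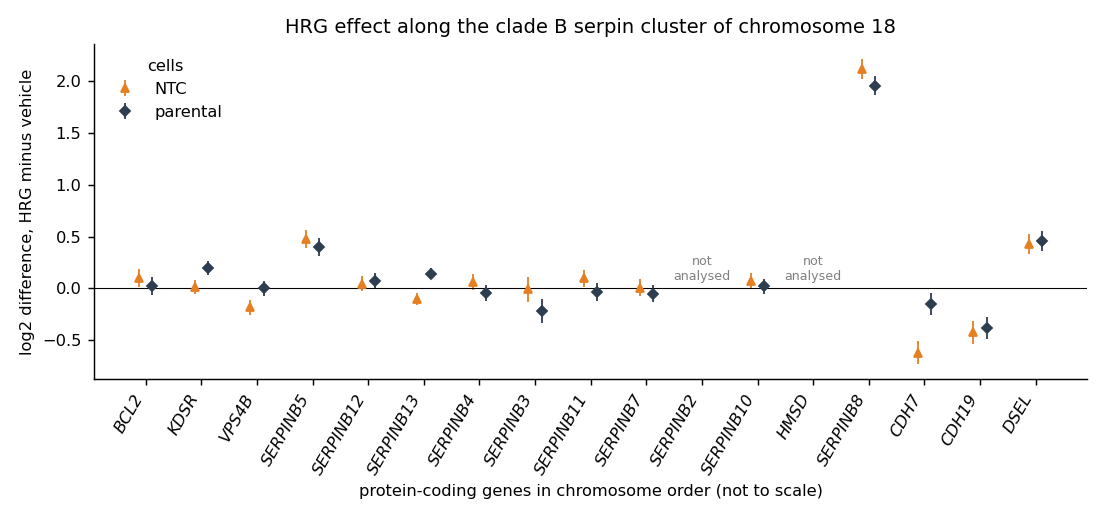
HRG effect (log2 difference of HRG minus vehicle, bars 1 SE) in NTC and parental cells for the protein-coding genes around the clade B cluster of chromosome 18, in chromosome order and not to scale. SERPINB8 lies at 2.12 and 1.96, and the other measured genes lie between -0.62 and 0.48.

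Genes linked to the family by function were followed in lists. Of 15 proteases that clade B serpins are known to inhibit, or close relatives of these, all 15 were measured, and 2 rose with HRG in parental cells: CTSV (cathepsin V, a relative of cathepsin L; 1.46, adjusted p = 5.16e-12) and PLAU (urokinase, the protease that SERPINB2 inhibits; 0.83, adjusted p = 5.24e-06). The other 13 were not called, where 5.27% of all tested probe sets were called. The median of the list was -0.02, against -0.03 over all probe sets. The counts were 2 in NTC cells, 1 with RNAi #1 (CTSV, 0.88) and 0 with RNAi #2. Over all probe sets 6.01%, 3.67% and 1.73% were called there. The interaction with RNAi #2 was -0.92 for CTSV (adjusted p = 6.04e-06) and -0.66 for PLAU (adjusted p = 0.00645), and that with RNAi #1 was -0.54 for CTSV (adjusted p = 0.00984). FURIN, looked up for its link to SERPINB8 after the results were seen, was 7.13, 7.24 and 7.32 with HRG in parental cells, against 7.35, 7.17 and 7.24 with vehicle, and the effect of HRG on it was -0.02 in parental cells and 0.14 in NTC cells, neither past the threshold.

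Of 21 serpins of other clades, 19 were measured. In parental cells 2 rose, SERPINA3 (α1-antichymotrypsin; 2.15, adjusted p = 3.89e-10) and SERPINE2 (protease nexin-1; 0.69, adjusted p = 2.67e-04), and 1 fell, SERPINA10 (the protein Z-dependent inhibitor; -0.59, adjusted p = 4.36e-05). The median over the list was -0.07, against -0.03 over all probe sets, of which 5.27% were called in parental and 6.01% in NTC cells. In NTC cells SERPINA3 and SERPINE2 rose, and the 1 called lower was SERPINI1 (neuroserpin; -0.68, limma adjusted p = 0.00114). In parental cells SERPINI1 was also lower with HRG, at a mean of 7.87 against 8.35 with vehicle, but it was not called. The serpin called lower thus differed between the controls by the call, which does not show a different response. The HRG effect on SERPINA3 was 1.88 with RNAi #1 and 0.78 with RNAi #2, against 2.27 in NTC cells, and its interaction with RNAi #2 was -1.43 (adjusted p = 5.24e-05). SERPINE2 also had a smaller effect with RNAi #2 (interaction -0.69, adjusted p = 0.0156), whereas that of SERPINA10 was 0.44 (adjusted p = 0.0369), which makes its fall smaller.

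Of 24 squamous differentiation genes, 19 were measured. With HRG in parental cells 5 rose and 0 fell, where 5.27% of all tested probe sets were called. The list median was 0.08, against -0.03 over all probe sets. The 4 with the greatest change were SPRR1A (2.03, adjusted p = 5.21e-08), KRT15 (1.63, adjusted p = 1.64e-10), KRT13 (1.20, adjusted p = 2.88e-08) and SPRR3 (0.90, adjusted p = 1.82e-04), which encode cornified envelope proteins and keratins. The counts were 5 in NTC cells (6.01% of all), 3 with RNAi #1 (3.67%) and 2 with RNAi #2 (1.73%). IVL was called in parental but not in NTC cells, and KRT16 in NTC but not in parental cells. In the interaction with RNAi #2, 4 were lower (3.94% of all probe sets passed), from SPRR1A (-1.43, adjusted p = 9.50e-04) to SPRR3 (-0.77, adjusted p = 0.0329).

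Marker levels moved with HRG beside these results. Over the 4 basal or squamous markers measured of 6, the mean log2 level per array was 5.36 to 5.55 with HRG, against 5.11 to 5.37 with vehicle, in parental cells, and 5.42 to 5.57 with HRG, against 5.17 to 5.24 with vehicle, in NTC cells. Of these 4, IVL was called in parental cells and DSG3 was below the 25% quantile of all arrays. Over the 8 luminal markers the mean level was 11.16 to 11.19 with HRG, against 11.25 to 11.36 with vehicle, in parental cells, where ESR1 fell by 0.98 and PGR by 0.79. These were the 2 called lower, and the other 6 were not called. The median luminal marker changed by 0.02 in parental cells, against -0.03 over all probe sets, and by 0.10 in NTC cells, against 0.03. The lower mean was therefore not a fall of the luminal markers as a set. CD68 was the 1 of 7 leukocyte markers called with HRG in parental cells (0.72), and LUM the 1 of 6 fibroblast markers (0.85). Over all probe sets 5.27% were called in that comparison. With RNAi #2, LUM was lower than in the control cells both without HRG (-1.29) and with HRG (-1.01), the 1 of 6 fibroblast markers called. Of all probe sets, 0.181% and 1.01% were called in these comparisons. ESR1 was higher with RNAi #2 than in the control cells under HRG (0.72). Its interaction with RNAi #2 was 0.67 and that of PGR 0.51, the 2 of 8 luminal markers called there (3.94% of all probe sets). The luminal level under HRG was 11.29 to 11.34 with RNAi #2, against 11.13 to 11.23 in NTC and 11.16 to 11.19 in parental cells. The part of these shifts in the serpin values was not tested.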

How the data were processed

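RNA of T-47D cells from 8 groups of 3 was hybridized to 24 Human Gene 1.0 ST arrays (Affymetrix). The log2 values were deposited by the authors after RMA (background adjustment, quantile normalization and summarization in simpleaffy, version not given in the sources used here), and quantile normalization assumes like distributions on all arrays. Columns not used numbered 0. Precision is limited by the number of arrays. In the platform annotation 19292 probe sets have 1 symbol, 1750 have several, and 7494 have none here. All 24 arrays entered 1 model in limma 3.58.1 (R 4.3.3) fitting 1 mean for each group, with Benjamini-Hochberg adjustment over the 21042 probe sets with a symbol. The study's methods name Rank Products, which was not run. Control for the silenced cells was the mean of parental and NTC cells. Replicates are biological per the methods, and whether they came from separate days is not given.

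The named genes are the members, PREX1, up to 4 genes per list called for HRG in parental cells, and the 3 probe sets most like SERPINB8. Members and lists were chosen with earlier results of these data known. Alternatives were the replicate number as a block, all probe sets, no dim probe sets (lowest 25%), trended and robust variance, array weights (statmod 1.5.0), median centring, other thresholds, NTC as the only control and each array left out. On simulated arrays of 21042 probe sets, the test of HRG in parental cells found 100 of 100 changes of 2-fold and 100 of 100 of 3-fold, with 0 false calls, and the interaction with RNAi #2 recovered 99 and 100 of 100 with 11 false calls. The simulated noise was independent between arrays and the changes lay in a single group. Real deviations are correlated and many groups change, so these counts check the code and do not measure error rates here. Promoter windows came from RefSeq (GRCh38.p14), of which the 250 bases before each start were used. Plots were drawn with matplotlib 3.10.9 in Python 3.11.15.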

Additional observations from a re-analysis of the deposited data

Results flagged for a closer look

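Of the members, SERPINB8 alone had an effect of HRG that differed between cells by a test of the difference itself. The HRG effect was lower with P-Rex1 RNAi #2 than in parental and NTC cells by 0.88 on the log2 scale (-0.88, limma adjusted p = 5.84e-05), and lower with RNAi #2 than with RNAi #1 (-0.74, adjusted p = 0.0285). The second call was lost in 9 of 24 omissions of a single array (adjusted p up to 0.122) and without the 4 arrays that stood apart (-0.74, adjusted p = 0.138), while the first held in 24 of 24 omissions.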

How the results depend on the processing

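Over 88 member results and their alternatives, 2681 of 2732 values kept their side of the adjusted p threshold, 24 no longer passed it, 27 came to pass it and 0 reversed a called direction. Values that did not pass could change sign, such as that of SERPINB4 for HRG in parental cells (-0.09 to 0.03). Without the fold limit the members called with HRG numbered 2 in parental cells, 2 in NTC cells, 3 with RNAi #1 and 2 with RNAi #2, and 2 for RNAi #2 with HRG. Leaving out each array in turn gave 0 to 1 member for RNAi #2 against RNAi #1 and 1 to 2 for RNAi #2 with HRG, where SERPINB5 crosses 1.5-fold without NTC HRG 1 or RNAi #2 HRG 1. The omission of the 4 arrays that stood apart, chosen after seeing the data, gave 0 for RNAi #2 against RNAi #1. The interaction of SERPINB8 with RNAi #2 held in 24 of 24 omissions (-0.96 to -0.84, adjusted p up to 4.82e-04). The value of SERPINB8 for RNAi #1 with HRG passed without dim probe sets (adjusted p = 0.044), with trended variance (0.044) and with median centring (0.0466). With array weights SERPINB3 and SERPINB13 passed for HRG in parental cells (adjusted p = 0.04 and 0.00367) and SERPINB5 for RNAi #2 without HRG (0.0406), SERPINB13 also passed with centring (0.017), and with all probe sets tested SERPINB1 with HRG and RNAi #2 was lost (0.0518).

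The labels do not say what equal replicate numbers share, so the main model has no block for them. The values did show a replicate structure, which that model leaves out. Of 84 same-numbered pairs, 66 had deviations correlated over 0.1 (range -0.29 to 0.56), and 21 of 24 arrays correlated best with their own number. With the replicate number as a block no count of called members changed (1 for HRG in each of the 4 kinds of cells), the adjusted p fell below 0.05 for SERPINB8 with RNAi #1 and HRG (0.0442), SERPINB5 with RNAi #2 and no HRG (0.0319), SERPINB9 with HRG in NTC cells (0.0328) and SERPINB13 with HRG in parental cells (0.0481), and over all probe sets the interactions called 885, against 244, with RNAi #1, 1375, against 830, with RNAi #2 and 33, against 14, between duplexes. Of the other alternatives, array weights gave 1443 for RNAi #1, NTC as the only control gave 135 and 529 for RNAi #1 and #2, and the omission of the 4 arrays gave 37 for RNAi #1 and 6 between duplexes. Single omissions gave as few as 39 for RNAi #1 (without RNAi #1 vehicle 2) and 1 between duplexes (without RNAi #1 HRG 3). No member has a second single-symbol probe set, so that alternative was not run.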
